A study of Mus musculus with 6 samples.

Results

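ATAC-seq peaks of 6 libraries from adult mouse neural stem cell (NSC) cultures were merged wherever they overlapped by 1 bp or more on chromosomes 1 to 19. Of the 116783 merged regions, 5830 (4.99%) lay more than 100 kb, from their nearest edge, from any transcript start of the GENCODE M21 annotation on GRCm38, and are called far regions. Position alone chose them, whatever the number of libraries with a peak. In ATAC-seq a transposase cuts and tags open DNA, and a peak is a stretch where such cuts pass the threshold of a peak caller.

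The cultures were grown from the brain subependymal zone (SEZ) of mice 10 weeks old in which CRISPR-Cas9 had removed the *Sox2* enhancer *Srr2* (*Srr2*del/del), and both states carried this deletion. Neurosphere medium held the mitogens EGF at 20 ng/ml and basic FGF at 10 ng/ml, and the paper names FGF for the 2 days after plating. Proliferating cultures (PROLIF) were sampled at 2 days in vitro with mitogens, by the sample labels. The series text gives 3 days for this state. DIFF cultures, at an early step of differentiation, were grown for 2 days with mitogen and then for 1 day without it, in medium with 2% fetal bovine serum. Each state had replicates 1, 2 and 4, wild-type cultures were not analysed here, and the labels do not name the animals behind the replicates. Each library came from about 50000 cells in bulk, so fewer cells with an open site and less opening per cell cannot be told apart. The treatment label speaks of RNA, whereas the molecule given is genomic DNA.

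Most genes are switched on through a promoter at the transcript start, but many of the sequences that tune them, the enhancers, lie far away and reach the promoter by looping of the chromatin. Long stretches without any transcript start, gene deserts, often surround genes for developmental transcription factors and neural adhesion or guidance molecules, and the introns of the longest neural genes form deserts of their own. Open sites in such stretches are commonly used in only some cell types, whereas promoters are open in most.

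The state-only regions below had a peak in all 3 libraries of one state and in none of the other. The reference around the summits of 6 strong far regions is shown because these carry the motif matches described with them. Sequences are from the plus strand of GRCm38, 5′ to 3′, each 60 bp either side of the summit of its best-ranked peak. Capitals mark AP-1 (TGASTCA, S being C or G) in the first, the E-box CAGATG in the second and the NFI motif TTGGCA, on either strand, in the others. Matches to other motifs are not marked. AP-1 is bound by Fos and Jun proteins downstream of growth factor signals, E-boxes by basic helix-loop-helix proneural factors, and NFI sites by nuclear factor I proteins of glial and stem cells.
PROLIF-only, between *4930564D02Rik* and *Kcnd3*, chr3:105211160-105211280: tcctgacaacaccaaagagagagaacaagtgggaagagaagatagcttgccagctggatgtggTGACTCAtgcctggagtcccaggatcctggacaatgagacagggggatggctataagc
PROLIF-only, between *Ncam2* and *Gm21833*, chr16:82711272-82711392: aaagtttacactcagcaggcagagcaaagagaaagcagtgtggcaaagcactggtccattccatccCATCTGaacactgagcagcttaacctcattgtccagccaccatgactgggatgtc
DIFF-only, between *Rragc* and *3100002H09Rik*, chr4:124069856-124069976: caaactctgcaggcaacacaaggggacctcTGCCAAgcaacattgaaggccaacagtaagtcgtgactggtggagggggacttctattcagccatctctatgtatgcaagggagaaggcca
DIFF-only, in an intron of *Malrd1*, chr2:15741090-15741210: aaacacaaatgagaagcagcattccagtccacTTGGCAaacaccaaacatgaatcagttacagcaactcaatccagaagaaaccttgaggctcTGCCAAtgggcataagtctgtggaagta
DIFF-only, between *Slc30a10* and *Lyplal1*, chr1:185617804-185617924: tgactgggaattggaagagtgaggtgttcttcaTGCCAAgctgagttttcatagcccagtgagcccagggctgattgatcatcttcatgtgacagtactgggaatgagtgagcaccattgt
All 6 libraries, in an intron of *Grid1*, chr14:35074747-35074867: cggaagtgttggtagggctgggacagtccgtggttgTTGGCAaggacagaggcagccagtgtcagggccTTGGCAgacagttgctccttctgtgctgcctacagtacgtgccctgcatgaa

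Depth differed between libraries. The background pileup, the reads over an ordinary site as solved from the caller's values, was 2.85 to 2.97 reads in PROLIF and 2.96 to 6.01 reads in DIFF, with DIFF replicate 4 the highest. The cultures had a promoter peak in all 6 libraries at 10 of 10 NSC markers, among them *Sox2*, *Nes* and *Fabp7*. Of the 4 neuronal markers on these chromosomes 3 had one in all 6, as had 1 of 3 oligodendrocyte, 2 of 5 microglial and 1 of 4 endothelial markers. *Mbp*, *P2ry12*, *Csf1r* and *Kdr* had one in 6 libraries, *Aif1* and *Tmem119* in 5, *Pecam1* in 3 and *Mog* in 1. *Sox10*, *Cx3cr1*, *Cldn5* and *Cdh5* had none in any library. The part of other cell types in the results below was not tested. In replicate 1 of both states, 2 stretches of chromosome 10 held many more peaks than in the other libraries, and one of them lies in a desert described below. Chromosome 1 held 895 far regions, 43.4 per Mb of far sequence against 24.4 on the other 18 autosomes. Of its far regions 57.2% were in 1 library, against 40.4% elsewhere. At 3 to 100 kb from a start chromosome 1 was also the densest, at 65.1 regions per Mb against 34.4 to 44.1 on the other autosomes. Values without these parts are given where they matter.

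To ask how much of the called open chromatin lay far from transcript starts in each state, the far peaks of each list were counted. PROLIF replicates 1, 2 and 4 had 3479, 2557 and 2075 far peaks, which were 4.33%, 3.95% and 3.57% of their lists. DIFF replicates 1, 2 and 4 had 2598, 2551 and 3524 far peaks, or 3.74%, 3.71% and 4.12%. The states overlapped fully, and each held one library that stood above its other 2. The share averaged 3.95 ± 0.384% in PROLIF and 3.85 ± 0.228% in DIFF (SD, n = 3), a difference of -0.0964 percentage points that did not exceed the spread (p = 0.7, exact permutation of the state labels, two-sided). The smallest p that 3 libraries a state allow is 0.1. Without PROLIF replicate 1 the difference was 0.0938 points. The difference in number, 187 more in DIFF, was also within the spread (exact permutation p = 0.6) and turned to -129 without DIFF replicate 4.

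Far sequence was sparse in peaks. It made up 9.31% of the sequenced bases of these chromosomes, 223 Mb, and held 12.5 ± 2.59 peaks per Mb (SD, n = 6), against 23.6 ± 4.09 per Mb in the 1789 Mb that lay 3 to 100 kb from a start. The log2 ratio of these densities averaged -0.92 over the 6 libraries and was below 0 in each (two-sided exact sign-flip test, p = 0.031, the smallest that 6 libraries allow). This and the sign-flip tests below count same-numbered libraries, which may share a culture, as separate units. With 3 pairs as units the smallest sign-flip p would be 0.25. Far peaks also ranked lower within their lists by −log10 p. Their median percentile was 38.7, 37.5 and 39.7 in PROLIF replicates 1, 2 and 4 and 37.7, 37.7 and 40.1 in the DIFF replicates, below the 41.1 to 43.4 of peaks at 3 to 100 kb in every library (mean difference -3.55, exact sign-flip p = 0.031). The median far peak was 225 to 277 bp wide and 15.5 bp narrower than peaks at 3 to 100 kb (exact sign-flip p = 0.031). With lists of equal length these differences were -1.91 (exact sign-flip p = 0.0625) and -4.08 bp (exact sign-flip p = 0.281), and neither passed. Among regions with a peak in all 6 libraries neither difference passed the test, the percentile differing by -0.363 (exact sign-flip p = 0.531) and the width by 8.33 bp in the other direction (exact sign-flip p = 0.25).

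Open sites far from transcript starts were less often shared by all libraries. Of the far regions, 1130 (19.4%) had a peak in all 6 libraries, against 25.9% of regions at 3 to 100 kb, 52.4% of regions within 3 kb of a start and 33.5% of all regions. A single library accounted for 2504 far regions (43.0%), of which 752 came from PROLIF replicate 1 and 702 from DIFF replicate 4, the lists with the most peaks. Regions of intermediate occupancy, in 2 to 5 libraries, numbered 741, 636, 412 and 407. Outside the stretches of chromosome 10 and chromosome 1, 21.1% of 4792 far regions were in all 6 libraries and 39.3% in 1. Far regions of 1 library were short and weak, with a median merged width of 125 bp and a median percentile of 8.78, and 22.0% of them were mostly repeat sequence. Those in all 6 had medians of 672 bp and 61.5, and 5.22% were mostly repeat. The contrast was also present at 3 to 100 kb. Regions of 1 library there had medians of 125 bp and 10.7, with 15.3% mostly repeat. Regions in all 6 there had 649 bp and 61.9, with 3.49% mostly repeat.

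**Figure D1:**
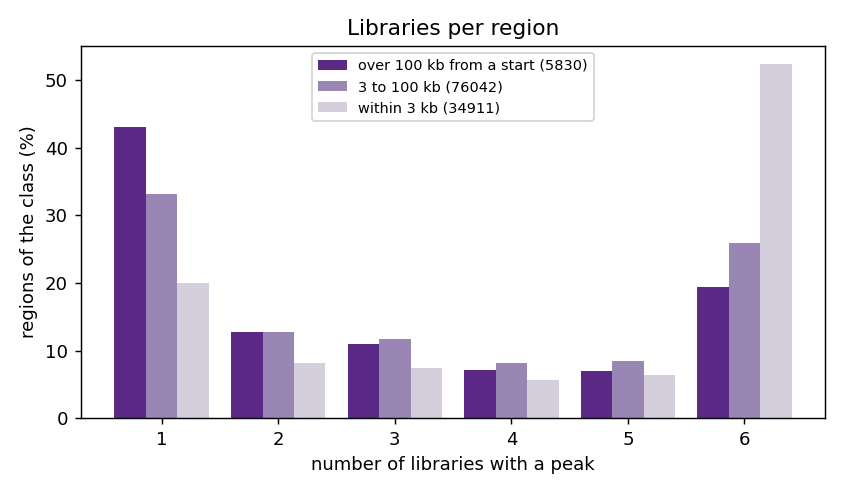
The bars give the percentage of regions (vertical axis) that had a peak in 1 to 6 libraries (horizontal axis) for far regions, regions at 3 to 100 kb and regions within 3 kb of a transcript start, with the number of regions in brackets. Far regions have the tallest bar at 1 library (43.0%) and the shortest at 6 libraries (19.4%).

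The share of regions in all 6 libraries was lower with each step of distance up to 500 kb. Regions in all 6 libraries made up 26.9% at 3 to 10 kb, 24.3% at 30 to 80 kb, 22.2% at 80 to 100 kb and 21.5% at 100 to 120 kb. Farther out the share was 19.2% at 120 to 200 kb, 18.1% at 200 to 300 kb and 13.8% at 300 to 500 kb, and it was 19.4% in the 36 regions beyond 500 kb. The median far region was 141404 bp from a start, the nearest 100006 bp and the farthest 717959 bp. The closest region left outside the limit was 99998 bp away.

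**Figure D2:**
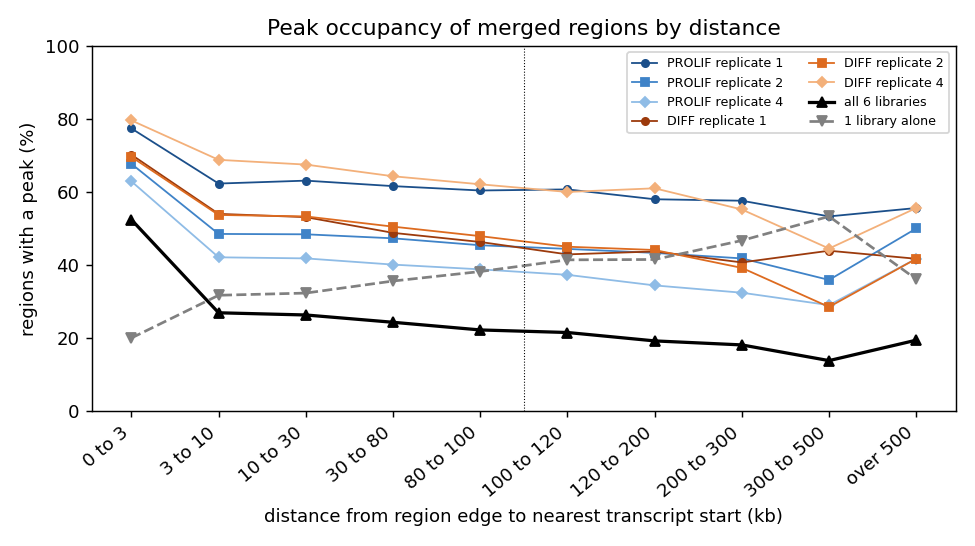
Percentage of merged regions with a peak (vertical axis) by distance in kb from the region's edge to the nearest transcript start (horizontal axis, bins of unequal width), for each library, for all 6 libraries together and for 1 library alone; the dotted line marks 100 kb. The share in all 6 falls from 52.4% within 3 kb to 21.5% just past 100 kb, while the share in 1 library alone goes from 20.0% to 41.4%.

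The flanks of the far stretches were examined next. A desert is a stretch in which every base is over 100 kb from every transcript start, so its nearest genes start at least that far beyond its edges. Deserts are named by the protein-coding gene with the nearest start on each side, and starts of other genes can lie nearer. There were 1789 deserts with a median length of 76.6 kb, of which 1269 (70.9%) held a far region and 635 (35.5%) held one found in all 6 libraries. All 52 deserts of 500 kb or more held at least 1. Far regions were unevenly spread, and 228 deserts (12.7%) held 50% of them. Inside protein-coding genes the far sequence had 33.5 far regions per Mb, against 23.9 per Mb outside them, and for regions in all 6 libraries 7.12 against 4.43. Of all far regions 1732 (29.7%) lay in introns of protein-coding genes, 34 (0.583%) touched their exons and 3965 (68.0%) lay between annotated genes, where regions at 3 to 100 kb had shares of 41.8%, 4.73% and 47.2%.

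The desert with the most far regions, 143 within 778 kb of chromosome 10, lay between the starts of *Man1a*, a Golgi mannosidase, and *Msl3l2*. The *Man1a* start lay 1147754 bp and the *Msl3l2* start 104915 bp beyond its edges. This desert had a peak at 73 of its far regions in PROLIF replicate 1 and at 104 in DIFF replicate 1. The other libraries had 2 in PROLIF replicates 2 and 4, 3 in DIFF replicate 2 and 8 in DIFF replicate 4. Only 2 of the 143 were in all 6 libraries, and 135 were in replicate 1 of one or both states and nowhere else. The excess ran past the desert, since from 55 to 58 Mb of that chromosome replicate 1 had a peak at 274 merged regions in PROLIF and 328 in DIFF, against 49 to 68 in the other libraries. Replicate 1 of both states was thus high and the others low, and no region there was state-only.

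On chromosome 1, the desert between *Rgs18*, a regulator of G protein signalling, and *Brinp3*, a neural growth-arrest gene, held 77 far regions in 894 kb, of which 2 were in all 6 libraries. PROLIF replicates 1, 2 and 4 had 33, 27 and 16 of them and the DIFF replicates 10, 12 and 25. The *Rgs18* start lay 651257 bp and the *Brinp3* start 174325 bp beyond the edges. The desert between *Kcnt2*, a sodium-activated potassium channel, and *Cdc73*, of the Paf1 transcription complex, held 53 in 710 kb, with 11, 32 and 9 in PROLIF and 2, 4 and 20 in DIFF. Only 1 of these was in all 6. The *Kcnt2* start lay 1133251 bp and the *Cdc73* start 1280764 bp beyond the edges. The desert between *4931408C20Rik* and *Gm597*, also on chromosome 1, held 28, with 2 in all 6. These genes started 1402451 and 310335 bp beyond its edges. In these 3 deserts most regions were weakly shared, and the library with the most was a different one in each.

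The other 6 of the 10 richest deserts lay in or beside long genes, most of them neural. *Gpc6*, a glypican that carries heparan sulphate on the cell surface, held 38 far regions, 22, 15 and 11 in the PROLIF replicates and 16, 18 and 21 in the DIFF replicates, with 7 in all 6. The desert between *Cdh26* and *Cdh4*, both cadherins for cell adhesion, was the densest of the 10 in regions of all 6 libraries. It held 35 far regions in 361 kb, 24, 18 and 16 in PROLIF and 20, 18 and 23 in DIFF, with 10 in all 6 and 2 DIFF-only. Its 27.7 regions in all 6 libraries per Mb compared with 2.57 per Mb in the desert between *Man1a* and *Msl3l2*. *Ptprd*, a receptor phosphatase that organises synapses, held 32 in a desert of 1053.2 kb within the gene, with 19, 14 and 9 in PROLIF and 13, 14 and 21 in DIFF. The longest desert of all, 1243.4 kb between *Mbd2* and *Dcc*, held 30, of which 27 lay inside *Dcc*, the netrin receptor for axon guidance. Its PROLIF libraries had 23, 13 and 12 and its DIFF libraries 11, 12 and 15, with 2 PROLIF-only regions. *Npas3*, a neural transcription factor, held 27, with 14, 11 and 10 in PROLIF and 12, 17 and 18 in DIFF, and 8 in all 6. The desert between *Dpyd*, of pyrimidine breakdown, and *Ptbp2*, a splicing regulator of neurons, held 27, with 22, 15 and 11 in PROLIF and 10, 14 and 17 in DIFF. In every one of these 6 deserts the library ranges of the states overlapped. Among deserts of 500 kb or more, the densest after those named for *Man1a*, *Rgs18* and *Kcnt2* were those of *Npas3*, at 47.4 far regions per Mb, and *Dpyd*, at 47.3.

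**Figure D3:**
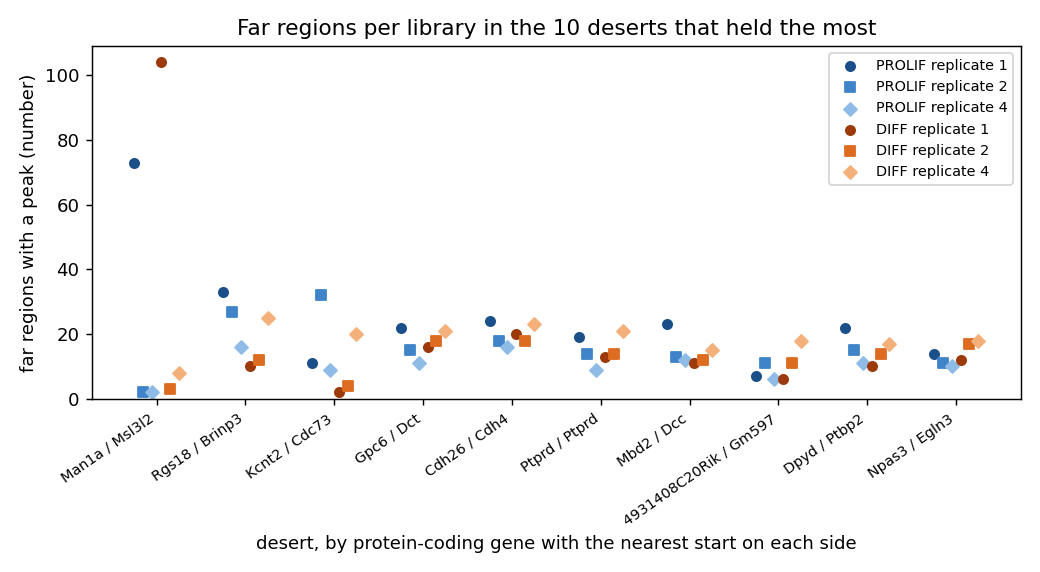
Number of far regions with a peak in each library (vertical axis, points by state and replicate) in the 10 deserts that held the most far regions (horizontal axis, named by the protein-coding gene with the nearest start on each side). Replicate 1 of both states stands apart at 73 and 104 in the Man1a and Msl3l2 desert, while the libraries of both states overlap in the Cdh26 and Cdh4 desert, at 16 to 24.

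**Figure D4:**
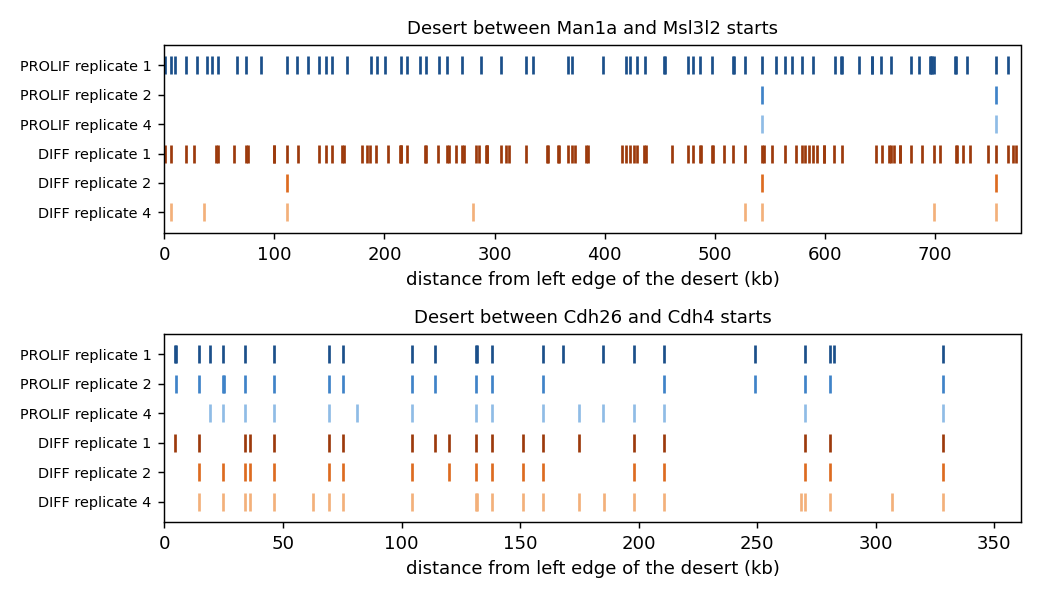
Position of each far region with a peak (marks, one row per library) as distance in kb from the left edge of 2 deserts. In the upper desert PROLIF replicate 1 and DIFF replicate 1 have marks along the whole 778 kb and the others have at most 8, whereas in the lower desert each library has 16 to 24 marks, and 10 of the 35 positions are marked in all 6.

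Genes were also ranked, after values were seen, by the far regions within their bodies. After *Gpc6* and *Ptprd* (32 far regions within the gene), *Dcc* and *Npas3* held 27 each and *Dpyd* 24. *Ctnna3*, an alpha-catenin, held 23 and *Camta1*, a calmodulin-binding transcription activator, 22. *Gpc5*, the glypican next to *Gpc6*, also held 22 but only 1 in all 6 libraries. *Astn2*, an astrotactin of neuronal migration, held 20, of which 6 were in all 6 libraries and 3 were DIFF-only. *Sgcd*, a sarcoglycan of the muscle membrane, held 18, with 7 in all 6.

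Flanking genes were then read from 3 gene lists, beside all 20780 autosomal protein-coding genes, of which 1302 (6.27%) flanked or held a desert with a far region and 843 (4.06%) one in all 6 libraries. Of 104 neural transcription factors, 45 (43.3%) flanked such a desert and 28 (26.9%) one with a region in all 6. Of 89 neural cell adhesion and guidance genes the numbers were 78 (87.6%) and 66 (74.2%). Of 80 long neuronal channel and receptor genes they were 56 (70.0%) and 38 (47.5%). The lists were made of genes known for long bodies and deserts, so their shares describe where such genes lie. Genes with such a desert had a median of 5 far regions among all genes, 6 among the transcription factors, 17 among the adhesion and guidance genes and 7 among the channels and receptors. DIFF-only regions flanked 11 transcription factors, 32 adhesion and guidance genes and 8 channel genes, and PROLIF-only regions 8, 16 and 8. Over all 20780 genes these numbers were 273 for DIFF-only and 185 for PROLIF-only regions, so DIFF-only regions flanked more genes there as well.

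Among transcription factors, *Nr2f1*, an orphan receptor of forebrain patterning, had 25 far regions in its flanking deserts but only 1 in all 6 libraries, while *Maf* had 24 with 7, *Zeb2* 23 with 7 and *Nr4a2* 20 with none. *Sox9*, an NSC and glial factor, had 20, with 5 in all 6 libraries, and 13, 10 and 8 in the PROLIF and 12, 12 and 17 in the DIFF replicates. *Sall1* had 18 with 6, *Irx2* 16 with 4, *Mef2c* 15 with 2 and *Irx1* 13 with 6. Among adhesion and guidance genes, *Flrt2* had 51, *Dcc* 49, *Ptprd* 47, *Cntnap5b* 43, *Cntnap5a* 41, *Cdh11* and *Pcdh20* 39 each, and *Cdh8*, *Pcdh17* and *Pcdh9* 37 each. The numbers in all 6 libraries ranged over these genes from 3 at *Pcdh17* to 12 at *Dcc*. A desert counted for each gene that flanked or held it, so neighbouring genes can share far regions. Among channels and receptors, *Kcnt2* led with 106, of which 4 were in all 6 libraries, followed by *Csmd3* with 42, *Csmd1* with 30, *Dpp10* with 28 and *Grm7*, a metabotropic glutamate receptor, with 27. *Gabrg3* and *Kcnj3* had 22 each, *Kcnh7* 18, and the glutamate receptor gene *Gria1* 17. *Kcnt2* lies on chromosome 1, and its libraries ranged from 11 in DIFF replicate 1 to 59 in PROLIF replicate 2.

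To ask which far regions separated the states, state-only regions were counted. There were 122 far PROLIF-only regions, 2.09% of far regions against 1.77% of all regions and 2.02% at 3 to 100 kb. The 183 far DIFF-only regions were 3.14%, against 3.52% of all regions and 4.10% at 3 to 100 kb. Both shares were near those of all regions. With lists cut to 58188 peaks each, the numbers were 171 and 166, so which state had more depended on list length. Without PROLIF replicate 4, when fewer libraries had to agree, they were 247 (4.37%) and 195 (3.45%). Over all regions the shares in that setting were 3.54% PROLIF-only and 3.85% DIFF-only. Taking same-numbered libraries as pairs, and asking for a peak in one state alone in at least 2 of 3 pairs and never the reverse, gave 421 PROLIF-only (7.22%, against 6.25% of all regions) and 605 DIFF-only (10.4%, against 11.2%). Of the 1130 far regions in all 6 libraries, 191 (16.9%) ranked higher in every DIFF than in every PROLIF library and 194 (17.2%) the reverse. At 3 to 100 kb these shares were 19.2% and 15.3%. Over all regions in all 6 libraries they were 21.4% and 11.7%, and within 3 kb of a start 23.9% and 7.54%. The 2 directions were nearly equal in number among shared far regions, and they were also less unequal at 3 to 100 kb than over all regions. Higher ranks in DIFF were most in excess within 3 kb of a start. Without PROLIF replicate 1 the first number was 330, and without DIFF replicate 4 the second was 305. Such numbers can rise because fewer libraries have to agree.

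Far peaks were shared more between libraries of one state. Their Jaccard index, shared bases over joint bases, had a mean of 0.492 (0.434 to 0.530) in the 6 library pairs within a state and of 0.404 (0.378 to 0.423) in the 9 pairs across states, with no overlap (difference 0.0883, p = 0.1 by exact permutation, the smallest that can be had). At 3 to 100 kb the difference was 0.0922. Input numbers in the peak names, whose meaning is not stated, split the libraries into PROLIF replicates 1 and 4 with DIFF replicate 1, where the difference was 0.0305, and the other 3, where it was 0.116.

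The strongest far regions of each kind are given with their fold enrichment over local background. Of those in all 6 libraries the first, between *Nxph1* and *Ndufa4* at chr6:9889910-9890155, matches the mitochondrial genome and reached 28.8- to 35.1-fold. An intronic region of *Astn2* (chr4:65839052-65840271, 1220 bp) had folds of 16.7, 16.3 and 16.9 in PROLIF and 15, 17.8 and 16.1 in DIFF. One in *Grid1*, a delta glutamate receptor subunit, had 21.4, 17.8 and 20.2 in PROLIF and 17.9, 23.2 and 21.3 in DIFF (chr14:35074237-35075129), and its summit holds the pair of NFI matches shown above. The remaining pair, in *2210408I21Rik* (chr13:77438910-77439056) and between *Sel1l* and *Flrt2* (chr12:93576978-93577244), were 88.4% and 100% repeat. The states overlapped in fold at all 5.

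The strongest PROLIF-only regions were weaker, with folds of 7.36 to 13.7. They lay between *Fstl5* and *Rapgef2* (chr3:78291997-78292196), between *Ankrd7* and the potassium channel gene *Kcnd2* (chr6:20037694-20038464), between *Ncam2*, a neural adhesion gene, and *Gm21833* (chr16:82711099-82711483), upstream of *Kcnd3* (chr3:105210920-105211503) and in *Kirrel3*, a synaptic adhesion gene (chr9:34735564-34735921). The one near *Kcnd2* had folds of 13.7, 8.63 and 8.06 in PROLIF replicates 1, 2 and 4 and lay 1177 kb from the *Kcnd2* start. The *Kcnd3* one had 8.56, 7.61 and 8.29 and lay 241 kb from that start. Both held an AP-1 match within 100 bp of the summit, and the other 3 of these 5 regions held none. The region between *Fstl5* and *Rapgef2* held an NFI match. A SOX match (ACAAWG, W being A or T) was in every one of these regions except that near *Kcnd2*. The region between *Ncam2* and *Gm21833* also held the E-box CAGATG and the *Kcnd3* one the E-box CAGCTG.

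The strongest DIFF-only regions had folds of 7.42 to 13.2. They lay between *Cd47* and *Bbx* (chr16:49980113-49980648), between *Rragc* and *3100002H09Rik* (chr4:124069504-124070516), in *Malrd1* (chr2:15740837-15741406), between *Adra1b* and *Il12b* (chr11:44083479-44084228) and between *Slc30a10* and *Lyplal1* (chr1:185617703-185618131). The first, 113 kb from the start of *Cd47*, the membrane signal against phagocytosis, had folds of 10.6, 13.2 and 9.55 in DIFF replicates 1, 2 and 4. The *Malrd1* region had 8.20, 13.2 and 11.7. The other 4 of these 5 regions held an NFI match, and the *Cd47* region a TEAD match. The regions between *Adra1b* and *Il12b* and between *Slc30a10* and *Lyplal1* also held a SOX match. No PROLIF library had a peak at any of them, which means a signal under the caller's threshold.

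The 3 regions in all 6 libraries farthest from any start lay inside genes for neural receptors. Both of the farthest were in *Dcc*, at 692417 bp (chr18:71657569-71658600) and 687626 bp (chr18:71595277-71595763), and the next in *Ptprd*, at 600354 bp (chr4:77558852-77559573). The first *Dcc* region had folds of 17.4, 12.6 and 13.2 in PROLIF and 9.71, 12.4 and 9.98 in DIFF, each PROLIF value above each DIFF value. The second had 5.79, 4.31 and 6.24 in PROLIF and 4.53, 7.33 and 7.70 in DIFF, and the *Ptprd* region 6.55, 5.58 and 7.54 against 6.04, 6.82 and 6.13, so the states overlapped at both.

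Motif matches within 100 bp of the summit, on both strands, were compared between far peaks and those at 3 to 100 kb in each library. Of 12 motifs, 9 differed in the same direction in all 6 libraries and passed the test (exact sign-flip test with Benjamini-Hochberg adjustment over 12 motifs, adjusted p = 0.0417 for each). The libraries share one genome and many regions, so these p-values cover the spread between libraries and not that between sequences. CTCF, the factor of loop anchors and insulators, showed the largest difference. Its motif was in 2.39% of far peaks (2.07% to 2.67% over the libraries) and in 6.29% at 3 to 100 kb (6.02% to 6.55%). SP (GGGCGG), a promoter motif, was at 4.13% and 6.03%. More frequent in far peaks were POU (ATGYAAAT, Y being C or T) at 4.24% against 2.88%, SOX (ACAAWG, W being A or T) at 35.4% against 32.8%, the NFI motif at 22.8% against 21% and TEAD (ACATTCCA) at 1.99% against 1.68%. The E-box CAGCTG, CRE (TGACGTCA) and RFX were less frequent in far peaks, at 21.3% against 22.2%, 0.211% against 0.357% and 0.196% against 0.290%. CRE and RFX rest on few matches, in 16 and 9 of the 5830 far regions. TEAD lost its call with protein-coding starts only (0.0649 points, exact sign-flip adjusted p = 0.375) and without chromosome 1 (0.0915 points, adjusted p = 0.188, exact sign-flip). CAGCTG lost it with lists of equal length (adjusted p = 0.075, exact sign-flip) and in regions of all 6 libraries (-0.136 points, adjusted p = 0.375, exact sign-flip), and CRE with windows of 50 bp (adjusted p = 0.075, exact sign-flip). Among peaks over 200 kb from a start CTCF was still lower, by -3.28 points (adjusted p = 0.075, exact sign-flip), and no motif passed. AP-1, CAGATG and ETS (CCGGAAGT) did not pass (exact sign-flip, adjusted p = 0.562, 0.341 and 0.075). ETS, lower in far peaks, passed in 4 alternatives (adjusted p = 0.0417 in each, exact sign-flip): lists of equal length, protein-coding starts only, without chromosome 1 and windows of 50 bp. Far regions had a median GC content of 46.1%, against 48.9% at 3 to 100 kb, and the part of base composition in these shares was not tested. Among regions in all 6 libraries CTCF was at 3.45% far and 7.91% at 3 to 100 kb.

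Between the states, the AP-1 motif was in 8.31%, 7.35% and 8.82% of far peaks in PROLIF replicates 1, 2 and 4 and in 4.16%, 4.31% and 4.34% in the DIFF replicates. The NFI motif was in 20.5%, 21.9% and 20.9% in PROLIF and in 24.3%, 26.1% and 23.4% in DIFF. The E-box CAGATG averaged 21.7% and 17.4%, and CAGCTG 23.3% and 19.3%. Libraries of the states did not overlap for these 4 motifs, nor for TEAD and CRE, 6 of 12 in all, each at the smallest p that the design allows (two-sided exact permutation p = 0.1, adjusted p = 0.2). CRE rests on few far peaks here, at 0.341% in PROLIF and 0.0804% in DIFF. SOX, at 35.7% and 35%, POU and CTCF overlapped. At 3 to 100 kb libraries of the states did not overlap for 9 of 12 motifs, and AP-1 averaged 8.05% and 4.6%, so the states also stood apart nearer to starts. TEAD went the other way there, at 1.60% in PROLIF and 1.77% in DIFF, against 2.06% and 1.92% in far peaks.

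The motifs in state-only far regions are given as a description, since regions are not replicates. AP-1 was in 35 of 122 PROLIF-only regions (28.7%) and 4 of 183 DIFF-only regions (2.19%), with 5.66% of far regions in all 6 libraries and 5.78% of all 116783 regions. The NFI motif was in 22.1% and 38.3% (18.4% of all regions), CAGATG in 32.8% and 12% (17.3%), CAGCTG in 33.6% and 12% (19.6%) and POU in 8.20% and 1.64% (2.63%), which for POU rests on 10 and 3 regions. SOX was in 40.2% and 31.7% (29.2%). The CTCF motif was in 1 region of each kind. State-only regions at 3 to 100 kb had AP-1 in 28.8% (PROLIF-only) and 2.73% (DIFF-only) and the NFI motif in 20% and 33.1%, so the contrast was also present nearer to starts.

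**Figure D5:**
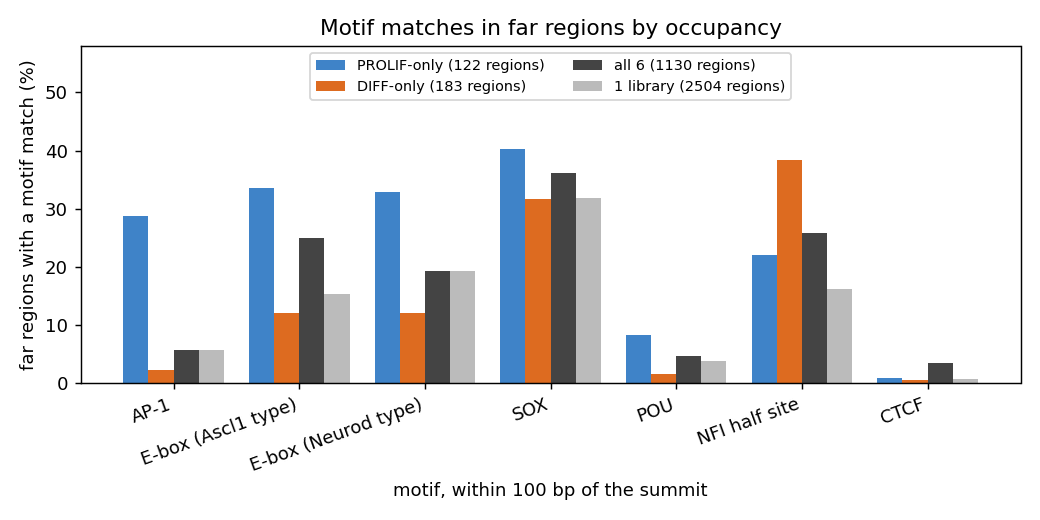
Percentage of far regions with a motif match within 100 bp of the summit (vertical axis) for 7 motifs (horizontal axis), by occupancy, with the number of regions in brackets. PROLIF-only regions have the tallest AP-1 bar (28.7%) and DIFF-only regions the tallest NFI bar (38.3%).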

How the data were processed

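ATAC-seq peak lists of 3 PROLIF and 3 DIFF *Srr2*del/del libraries were used. The authors used Cutadapt and Trimmomatic on the reads, Bowtie2 for mapping (GRCm38, mm10), Picard for duplicates and MACS2 for narrow peaks of each library (no model, FDR 0.05). Versions, read extension, any transposase shift and any blacklist are not given in the sources used here, and each can move peak edges. Where no peak was called, the signal may still be above 0. The deposited fold enrichment is a ratio to local background, and the deposited −log10 p and q come from the same background. The score the authors deposited, 10 times −log10 q in whole numbers, was not used.

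Peaks of chromosomes 1 to 19 were merged at 1 bp of overlap. Starts came from GENCODE M21; the study's release differed. Percentiles rank peaks by −log10 p within a list. Background and pileup reads were solved from fold and p under the caller's Poisson model. Read totals were not used here. States were compared by exact permutation of 3 against 3 labels, and far peaks with those at 3 to 100 kb by exact sign flips over 6 libraries. The sign flips took same-numbered libraries as separate units. Nothing states that replicates came from separate animals, so p-values measure the spread between these libraries. A region over 50% lower case in the reference is mostly repeat. Motif windows used the reference; a mitochondrial match is at least 50 bp at 90% identity by blastn 2.17.0.

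Deserts were named by the protein-coding genes with the nearest start on each side and any that hold them. Named were the 10 deserts with the most far regions, the 5 densest of 500 kb or more, the 5 strongest far regions of each kind by lowest percentile, the 3 farthest in all 6 libraries and 10 genes per list, some of which are not reported here. The members, lists and rules were chosen with earlier results of these data known. Replicate numbers were taken as pairs in an alternative, because same-numbered libraries may share a culture. The paper pairs its ATAC-seq with RNA-seq of the same cultures, and does not state that same-numbered libraries of the 2 states do so. Deviations of percentile correlated at 0.0551, 0.152 and 0.0122 between same-numbered libraries and at -0.112 to 0.0611 between others, over 39088 regions. Scripts ran in Python 3.11.15 with scipy 1.17.1, pandas 2.3.3, numpy 2.4.6, matplotlib 3.10.9 and pysam 0.24.0, and were tested on simulated data.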

Additional observations from a re-analysis of the deposited data

Results flagged for a closer look

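Chromosome X was outside the chromosomes used above and held 131 far regions of 2831 merged regions (4.63%). Of these, 24 (18.3%) were in all 6 libraries, 44 (33.6%) in 1 library, 4 were PROLIF-only and 3 DIFF-only. It was singled out because it holds far regions that no comparison above used, and there is no control library to set it against.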

How the results depend on the processing

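The lower density of far peaks kept its direction in every alternative, at log2 ratios of -1.22 to -0.90, as did the Jaccard difference, at 0.0734 to 0.112. Leaving out 1 library left the density ratio at -0.94 to -0.90, the percentile difference from peaks at 3 to 100 kb at -3.77 to -3.32 and the width difference at -17.6 to -13.4 bp. With 5 libraries the exact sign-flip p cannot go below 0.0625, so these no longer passed by construction. With lists of equal length the percentile and width differences were -1.91 (exact sign-flip p = 0.0625) and -4.08 bp (p = 0.281, permutation of signs). Over 200 kb they were -5.39 and -19.5 bp (exact p = 0.0625), and without chromosome 10 the percentile differed by -3.18 (exact p = 0.0625). In regions of all 6 libraries they were -0.363 and 8.33 bp.

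The state difference in median percentile of far peaks, -0.123, had no stable sign. It was 3.03 at q under 0.01, 5.48 with equal lists, 0.989 both with protein-coding starts only and without chromosome 1, 1.93 over 200 kb, 1.52 without chromosome 10, 0.0806 without regions that match the mitochondrial genome, and from -0.911 to 0.397 with 1 library left out. The difference in number was -89.7 with equal lists and -129 to 574 with 1 library left out, and that in share -0.290 to 0.0938 points.

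Far regions in all 6 libraries, PROLIF-only, DIFF-only, and those ranked higher in DIFF or in PROLIF numbered 5247, 515, 804, 902 and 892 with protein-coding starts only, and 212, 33, 31, 33 and 36 over 200 kb, since these settings change how many regions are far. A cover of at least 50% gave 421 in all 6, with 46 and 80 ranked higher in DIFF and PROLIF. With 1 library left out the numbers ran from 1142 to 1319, 139 to 247, 195 to 323, 201 to 330 and 205 to 305. Fewer libraries had to agree in these settings. The replicate block gave 421 PROLIF-only and 605 DIFF-only regions; for the share of far peaks it gave an exact p of 0.75, and it changed no other call.

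Over 200 kb 0 of 12 motifs passed after adjustment, with 5 at the smallest unadjusted p (exact sign-flip p = 0.031). AP-1, which did not pass, had no stable sign, at 0.0369 with equal lists, 0.00138 with protein-coding starts only, 0.632 over 200 kb, 0.0522 without chromosome 1 and 0.0604 with windows of 50 bp. ETS differed by 0.215 over 200 kb and by 0.0310 in regions of all 6 libraries. TEAD no longer passed with protein-coding starts only (0.0649 points) or without chromosome 1 (0.0915 points, chosen after seeing the data), CAGCTG with equal lists (-0.535) or in regions of all 6 libraries (-0.136), and CRE with windows of 50 bp (-0.0899). ETS passed with equal lists (-0.0695), protein-coding starts only (-0.149), without chromosome 1 (-0.0963) and with windows of 50 bp (-0.0254). The cause of these changes was not tested. A region without a peak in a shallow list may have been under its threshold.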
